A study of Mus musculus with 4 samples.

Results

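T8 leukemia cells were surveyed for the genes of orphan and purinergic receptors, with the prostaglandin E2 and adenosine receptors that signal beside them. Members were all protein-coding genes of GENCODE M21 whose symbol begins with Gpr and a digit, P2ry, P2rx, Ptger or Adora, apart from *Gpr183*. These were 96 of 55359 gene identifiers in the count table, namely 72 Gpr, 9 P2ry, 7 P2rx, 4 Ptger and 4 Adora genes. A gene was called silent when each library held fewer than 3 of its counts. By this rule 43 members were silent and 53 were not, and 28 of the 53 had enough counts to be tested.

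T8 is a cell line grown from a single preB cell acute lymphoblastic leukemia of an Irf4-/- mouse, so every library derives from one tumor and carries the *Irf4* deletion. Cells were transduced with a retrovirus coding for GFP alone (EV-RV) or for GFP and IRF4 (IRF4-RV), and viable cells were taken for bulk RNAseq after 24 h. Each group had 2 libraries, EV-RV 1 and 2 and IRF4-RV 1 and 2, which the labels call biological replicates without naming separate cultures or days. Titles and tissue name T8, whereas a protocol field mentions T11, and the libraries were used as T8. An Irf4-/- genotype, a single tumor and expression of IRF4 from a retrovirus limit the groups as a model of IRF4 in normal preB cells. In bulk RNA, a change in the number of cells of a type and a change of RNA per cell cannot be told apart.

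P2Y receptors are G protein-coupled receptors for extracellular nucleotides, and P2X proteins are ion channels opened by ATP. Ectoenzymes turn ATP into adenosine, which acts on the Adora receptors, and prostaglandin E2 acts on the Ptger (EP) receptors. Receptors coupled to Gs raise cAMP and receptors coupled to Gi lower it. Most Gpr genes were named before a ligand was known. Some have since been tied to lysophospholipids, protons or fatty acids, and some encode proteins of the Golgi or the lysosome. Thus not all members are classical surface receptors, since 7 are P2X channels and 8 were grouped as encoding proteins of intracellular membranes. This grouping was not tested here.

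Windows before a start of *Gpr18*, *Gpr19* and *P2ry10* are shown first. *Gpr18* and *P2ry10* were among the members that rose most with IRF4-RV. *Gpr19*, which was not called, holds a match to the same pattern as *Gpr18*. Each run holds the 250 bases before a RefSeq gene start on GRCm38.p6, written 5′ to 3′ on the strand of the gene. Capitals mark a pair of GAAA set apart by 2 bases of any kind in *Gpr18* (chr14:121915889-121916138, minus strand) and in *Gpr19* (chr6:134887862-134888111, minus strand, match on the opposite strand, a start that lies within the longer GENCODE gene), and TGANTCA in *P2ry10* (chrX:107088242-107088491, plus strand).
Gpr18: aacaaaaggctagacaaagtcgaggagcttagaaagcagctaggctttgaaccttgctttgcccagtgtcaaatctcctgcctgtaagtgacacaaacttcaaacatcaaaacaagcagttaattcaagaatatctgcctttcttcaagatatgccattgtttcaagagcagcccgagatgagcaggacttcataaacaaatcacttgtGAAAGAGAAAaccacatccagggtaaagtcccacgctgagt
Gpr19: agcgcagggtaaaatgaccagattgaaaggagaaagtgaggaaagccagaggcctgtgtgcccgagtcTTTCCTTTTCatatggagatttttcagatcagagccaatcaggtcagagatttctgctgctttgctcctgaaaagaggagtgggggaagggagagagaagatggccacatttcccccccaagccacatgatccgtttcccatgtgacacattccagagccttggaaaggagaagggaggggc
P2ry10: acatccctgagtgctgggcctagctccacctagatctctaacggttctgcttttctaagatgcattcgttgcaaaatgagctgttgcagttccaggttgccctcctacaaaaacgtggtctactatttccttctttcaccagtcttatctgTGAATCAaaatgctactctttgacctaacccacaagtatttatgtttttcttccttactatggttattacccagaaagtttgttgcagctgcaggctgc

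This spaced pair of GAAA is the pattern of interferon response elements. A GGAA in place of the first GAAA gives the pattern of composite ETS and IRF elements, and TGANTCA is that of AP-1 sites. Of the 96 members, 69 had a RefSeq window of 250 bases before and 50 bases after a start, and both strands were searched. The interferon response pattern occurred in windows of 3 members (4.35%), against 3.99% of 27025 genes with a window. The 3 were *Gpr18*, *Gpr19* and the silent gene *Gpr15*. In *Gpr18* the match begins 41 bases before the start, and in *Gpr19* 182 bases before the start shown. Windows at other starts of *Gpr19* held no match to this pattern. The composite pattern occurred in 1 member, the silent gene *Gpr33* (1.45%, against 3.16% of all genes). TGANTCA occurred in 11 members (15.9%, against 8.97%), of which *P2ry10* and *Gpr146* were called. Among the 13 called members with a window the share was 15.4%, near that of all members. *P2ry10b*, the neighbor of *P2ry10*, was not called and was also among the 11. In each of *P2ry10*, *Gpr146* and *P2ry10b*, windows at other starts of the gene held no match. The 2 IRF patterns can overlap, and such letters describe a window without showing that a factor binds there.

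The libraries held between 31230223 and 37817752 counts, and 3 counts, used as the limit of detection, came to 0.0824 to 0.0952 CPM (counts relative to a library size scaled with TMM factors). This limit covers counting error only. *Irf4* was represented by 8070 and 7600 counts in the EV-RV libraries against 95578 and 90693 in those of IRF4-RV, a log2 fold change of 3.46 (SE 0.0907, adjusted p by edgeR = 1.14e-06). Reads of the vector and of the *Irf4* locus are not separated, and which part of *Irf4* the EV-RV counts come from was not analysed here. Among 9 preB cell genes, *Cd79a* had between 29068 and 33036 counts, *Rag1* had at most 1, and 3 (*Vpreb1*, *Igll1* and *Il7r*) fell with IRF4-RV. Of 7 T or NK cell markers, 5 had at most 3 counts in each library, and the summed level was between 1.18 and 1.57 CPM. Of 7 macrophage markers, 4 (*Csf1r*, *Adgre1*, *Lyz2* and *Fcgr1*) had at most 3 counts. The summed level of the 7 was 1.47 and 1.46 CPM with EV-RV and 8.53 and 7.42 CPM with IRF4-RV, with *Mrc1* at 260 and 230 counts in the latter. Of 6 granulocyte markers, 4 had at most 3 counts, and the sum went from 0.12 and 0.159 to 2.18 and 1.76 CPM, nearly all of it *Ly6g*. Of 6 stromal markers, only *Dcn* had at most 3 counts. The sum of the 6 was 47 and 88.4 CPM with EV-RV and 46.7 and 219 CPM with IRF4-RV, so that IRF4-RV 2 stood apart. Whether macrophage or granulocyte RNA has a part in the member results was not tested.

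With IRF4-RV, 16 of the 28 members tested changed at an FDR of 0.1, 13 of them higher and 3 lower (quasi-likelihood F test of edgeR, adjusted by Benjamini and Hochberg over 14637 genes). Among all genes tested, 29.7% were called, 16% higher and 13.7% lower. The higher members were *Gpr160*, *Gpr18*, *Gpr174*, *P2rx3*, *P2ry10*, *Gpr155*, *Gpr132*, *Gpr146*, *Gpr171*, *Gpr12*, *Ptger4*, *Gpr107* and *Gpr108*, and the lower ones *Gpr20*, *Gpr176* and *Gpr84*. Of the 28 members tested, 10 were called and rose by more than 1 on the log2 scale, and 6 by more than 2. Over all genes tested these shares were 4.5% and 1.69%. Among all genes called higher, 659 of 2340 rose by more than 1. Of the 28, 3 were called and fell by more than 1, against 2.12% of all genes tested. Of these 3, *Gpr20* fell by more than 2, against 0.41% of all genes tested. Among all genes called lower, 310 of 2009 fell by more than 1. The groups did not overlap in 23 of the 28 members, against 61.3% of all genes. The median log2 fold change of the 28 was 0.45, and that of all genes tested 0.00726. These counts are descriptions, since 5 of the 28 passed the filter on low counts through one group alone: *Gpr157*, *Gpr160* and *Gpr55* through IRF4-RV, *Gpr20* and *Gpr84* through EV-RV. Without EV-RV 2, which moved the count most, 11 members were called, 10 higher and 1 lower, with 23% of all genes called. At an FDR of 0.05, 14 members and 22.9% of all genes were called. DESeq2 called 14 members and 24.4% of all genes, edgeR with DESeq2 size factors 16 and 29.4%, and edgeR with library size alone 16 and 31.5%. Without a filter on low counts 16 members and 14.9% of all genes were called, and with a filter of 1 CPM in 2 libraries 14 and 35.3%. With either IRF4-RV library left out, 13 to 16 members and 23.5% of all genes were called.

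**Figure D1:**
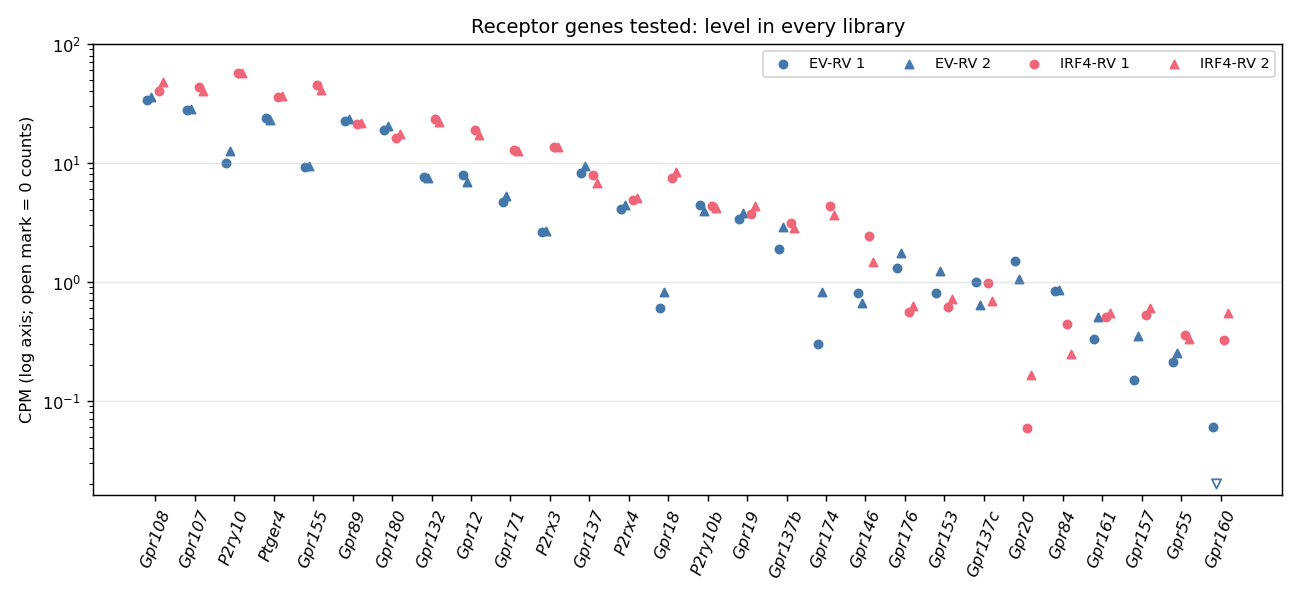
CPM of the 28 members tested, ordered by mean level, on a log axis; circles are replicate 1 and triangles replicate 2, blue EV-RV and red IRF4-RV, and the open mark stands for 0 counts (*Gpr160* in EV-RV 2). Both IRF4-RV libraries of *P2ry10* (57.2 and 56.6 CPM) lie above both EV-RV libraries (9.95 and 12.5 CPM), whereas the libraries of *P2ry10b* lie between 3.93 and 4.41 CPM.

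Members that are receptors for lysophospholipids held some of the steepest rises. Such receptors outside the naming rule were not examined. *P2ry10* (ENSMUSG00000050921, chromosome X, 107088492 to 107104974, plus strand) is named after the P2Y family but responds to lysophosphatidylserine. It was represented by 332 and 394 counts in the EV-RV libraries against 1937 and 2060 in those of IRF4-RV. Both IRF4-RV libraries were far above both EV-RV libraries, at 56.9 ± 0.432 against 11.2 ± 1.8 CPM (SD, n = 2 each). This gave a log2 fold change of 2.34 (SE 0.121, adjusted p by edgeR = 1.66e-05). *Gpr174* (ENSMUSG00000073008, chromosome X, 107255878 to 107296769, plus strand), also a lysophosphatidylserine receptor of lymphocytes, was represented by 10 and 26 counts in the EV-RV libraries against 148 and 134 in those of IRF4-RV. Its groups lay apart, at 0.562 ± 0.371 and 4.03 ± 0.487 CPM (SD, n = 2 each). Its log2 difference was 2.84 (SE 0.404, adjusted p by edgeR = 0.00212), with a range of 2.27 to 3.73 when single libraries were dropped.

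Between these genes on chromosome X lies *P2ry10b* (ENSMUSG00000054293, 107148927 to 107173661, plus strand), a close relative of *P2ry10*. Together the 3 genes span 208 kb. *P2ry10b* had 147 and 124 counts in the EV-RV libraries against 148 and 152 in those of IRF4-RV, and its groups overlapped in CPM. No change was detected, with a log2 fold change of 0.03 (SE 0.172, adjusted p by edgeR = 0.914). How reads shared by *P2ry10* and *P2ry10b* were counted is not stated, so a part of either count could belong to the other. Of the remaining members tied to lysophospholipids, *Gpr55*, tied to lysophosphatidylinositol, had 7 and 8 counts in the EV-RV libraries against 12 and 12 in those of IRF4-RV. Its log2 fold change was 0.56 (SE 0.533, adjusted p by edgeR = 0.512). *Gpr34*, another lysophosphatidylserine receptor, had between 2 and 7 counts and was not tested.

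None of the P2Y receptors for nucleotides reached a level that could be tested. *P2ry2*, which responds to ATP and UTP, had 0 and 3 counts in the EV-RV libraries against 2 and 16 in those of IRF4-RV. The count of 16 came from IRF4-RV 2, the library with the highest stromal markers (219 CPM), and the part of these in it was not tested. *P2ry13*, a receptor for ADP, had 0, 2, 2 and 5 counts in EV-RV 1 and 2 and IRF4-RV 1 and 2. *P2ry14*, a receptor for UDP-glucose, had 1, 0, 3 and 1. *P2ry1*, *P2ry4*, *P2ry6* and *P2ry12* were silent.

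Among P2X channels, *P2rx3* rose and *P2rx4* was not called. *P2rx3* (ENSMUSG00000027071, chromosome 2, 84998583 to 85037462, minus strand), an ATP-gated channel best known from sensory neurons, was represented by 87 and 84 counts in the EV-RV libraries against 458 and 499 in those of IRF4-RV. Replicates lay close together, at 2.64 ± 0.0401 and 13.6 ± 0.129 CPM (SD, n = 2 each). The change came to a log2 value of 2.37 (SE 0.133, adjusted p by edgeR = 2.47e-05). *P2rx3* shares 51 exon bases with *Ssrp1* on the opposite strand, and whether counting used the strand is not stated. *Ssrp1* itself was at 176 ± 9.13 CPM with EV-RV and 177 ± 2.4 CPM with IRF4-RV (SD, n = 2 each). *P2rx4*, found on many immune cells, had 136 and 139 counts in the EV-RV libraries against 164 and 185 in those of IRF4-RV. Its log2 fold change was 0.23 (SE 0.163, adjusted p by edgeR = 0.372). *P2rx7*, the channel through which ATP acts on macrophages, lies 16111 bases before *P2rx4* and had 0, 4, 5 and 9 counts. *P2rx2* had 2, 2, 1 and 5 counts, *P2rx1* 1, 0, 3 and 0, and *P2rx5* 0, 0, 0 and 3, in the same order of libraries. *P2rx6* was silent.

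Adenosine receptors were nearly absent from the counts. *Adora2a*, which couples to Gs, had 1 and 4 counts in the EV-RV libraries against 12 and 7 in those of IRF4-RV and was not tested. *Adora1*, *Adora2b* and *Adora3* were silent.

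*Ptger4* (ENSMUSG00000039942, chromosome 15, 5206661 to 5244187, minus strand) encodes EP4, a prostaglandin E2 receptor that raises cAMP. It was the only Ptger gene with enough counts to be tested, at 796 and 726 counts in the EV-RV libraries against 1212 and 1336 in those of IRF4-RV. Levels were 23.4 ± 0.588 and 36.2 ± 0.643 CPM (SD, n = 2 each). On the log2 scale the difference was 0.63 (SE 0.0884, adjusted p by edgeR = 0.00201). A part of its exons is shared with *Gm15937* and *Ttc33* on the opposite strand. *Ptger1* had 6, 3, 6 and 4 counts and was not tested. *Ptger2* and *Ptger3* were silent.

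*Gpr18* (ENSMUSG00000050350, chromosome 14, 121911253 to 121915781, minus strand), a receptor of lymphocytes whose ligand is debated, was represented by 20 and 26 counts in the EV-RV libraries against 252 and 306 in those of IRF4-RV. These are 0.712 ± 0.159 and 7.92 ± 0.682 CPM (SD, n = 2 each), and the groups lay far apart. This gave a log2 fold change of 3.47 (SE 0.224, adjusted p by edgeR = 4.06e-05), with a range of 3.25 to 3.72 when single libraries were dropped. *Gpr18* lies within *Ubac2*, which runs on the opposite strand and rose by 0.56 on the log2 scale (SE 0.0821, adjusted p by edgeR = 0.00247), with 46.3 ± 2.11 CPM under EV-RV and 68.2 ± 1.2 CPM under IRF4-RV (SD, n = 2 each). No exon bases are shared between the genes. Its window is printed above.

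*Gpr132* (ENSMUSG00000021298, chromosome 12, 112850873 to 112868228, minus strand) belongs to the proton-sensing group and is known for slowing the cell cycle. It had 252 and 235 counts in the EV-RV libraries against 798 and 810 in those of IRF4-RV. Its log2 difference was 1.61 (SE 0.106, adjusted p by edgeR = 4.4e-05). Of the other proton sensors, *Gpr65* had 0, 0, 0 and 4 counts and was not tested, and *Gpr4* was silent.

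*Gpr12* (ENSMUSG00000041468, chromosome 5, 146582398 to 146585239, minus strand) raises cAMP without a ligand through Gs, a property it shares with *Gpr3* and *Gpr6*. It had 264 and 217 counts in the EV-RV libraries against 643 and 627 in those of IRF4-RV, so that the groups lay apart. The change came to a log2 value of 1.29 (SE 0.124, adjusted p by edgeR = 0.000322). *Gpr3* had 1, 0, 4 and 0 counts, and *Gpr6* was silent.

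*Gpr171* (ENSMUSG00000050075, chromosome 3, 59096448 to 59101821, minus strand), reported as a receptor for a neuropeptide and found on lymphocytes, had 156 and 167 counts in the EV-RV libraries against 436 and 462 in those of IRF4-RV. On the log2 scale the difference was 1.36 (SE 0.13, adjusted p by edgeR = 0.000306). It lies in *Med12l* with *P2ry14*, *P2ry13* and *P2ry12*, and none of these 3 neighbors had more than 5 counts in a library. *Med12l* itself had between 3 and 7 counts. Of these genes only *Gpr171* had enough counts to be tested.

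Among orphans with few counts, *Gpr160* (ENSMUSG00000037661, chromosome 3, 30855950 to 30897192, plus strand) had 2 and 0 counts in the EV-RV libraries against 11 and 20 in those of IRF4-RV. Both EV-RV counts lay under the limit of 3 counts. *Gpr160* passed the filter on low counts through IRF4-RV alone, the group where it was high, which limits its test. The ratio of the summed counts after scaling was 14.3, with an exact 95% interval from 3.64 to 123 that covers counting error only (edgeR adjusted p = 0.0262, and 0.17 without EV-RV 2). Without IRF4-RV 2, the library with the highest stromal markers, it was too low to be tested, and the part of these was not tested. *Gpr146* (ENSMUSG00000044197, chromosome 5, 139377697 to 139396415, plus strand), tied to cholesterol levels in plasma, had 27 and 21 counts in the EV-RV libraries against 83 and 54 in those of IRF4-RV. The IRF4-RV libraries differed from each other, and the log2 fold change was 1.41 (SE 0.365, adjusted p by edgeR = 0.0287). It was not called without EV-RV 2 (adjusted p = 0.118 by edgeR) or without IRF4-RV 1 (adjusted p = 0.172 by edgeR).

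The 3 members that fell were all weakly expressed. *Gpr20* and *Gpr84* passed the filter on low counts through EV-RV alone, the group where they were high, which limits their tests. *Gpr20* (ENSMUSG00000045281, chromosome 15, 73694604 to 73707505, minus strand), an orphan that signals through Gi without a ligand, was represented by 50 and 33 counts in the EV-RV libraries against 2 and 6 in those of IRF4-RV. It was nearly lost from both IRF4-RV libraries, with a log2 fold change of -3.45 (SE 0.561, adjusted p by edgeR = 0.00398) and a range of -4.34 to -2.94 when single libraries were dropped. *Gpr176* (ENSMUSG00000040133, chromosome 2, 118277110 to 118373419, minus strand), an orphan known from the circadian clock, had 44 and 55 counts in the EV-RV libraries against 19 and 23 in those of IRF4-RV. Its log2 fold change was -1.35 (SE 0.356, adjusted p by edgeR = 0.0304, and 0.206 without EV-RV 2). *Gpr84* (ENSMUSG00000063234, chromosome 15, 103308235 to 103310612, minus strand), a receptor for medium-chain fatty acids on myeloid cells, had 28 and 27 counts in the EV-RV libraries against 15 and 9 in those of IRF4-RV. This gave a log2 fold change of -1.29 (SE 0.461, adjusted p by edgeR = 0.0849). The call was lost with DESeq2 (adjusted p = 0.286) and by edgeR without EV-RV 1 (adjusted p = 0.287), EV-RV 2 (adjusted p = 0.299) or IRF4-RV 2 (adjusted p = 0.379). *Gpr84* shares 681 exon bases with *Gm49482* on the opposite strand, and *Gpr176* shares 133 with *Gm29232* on the same strand.

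**Figure D2:**
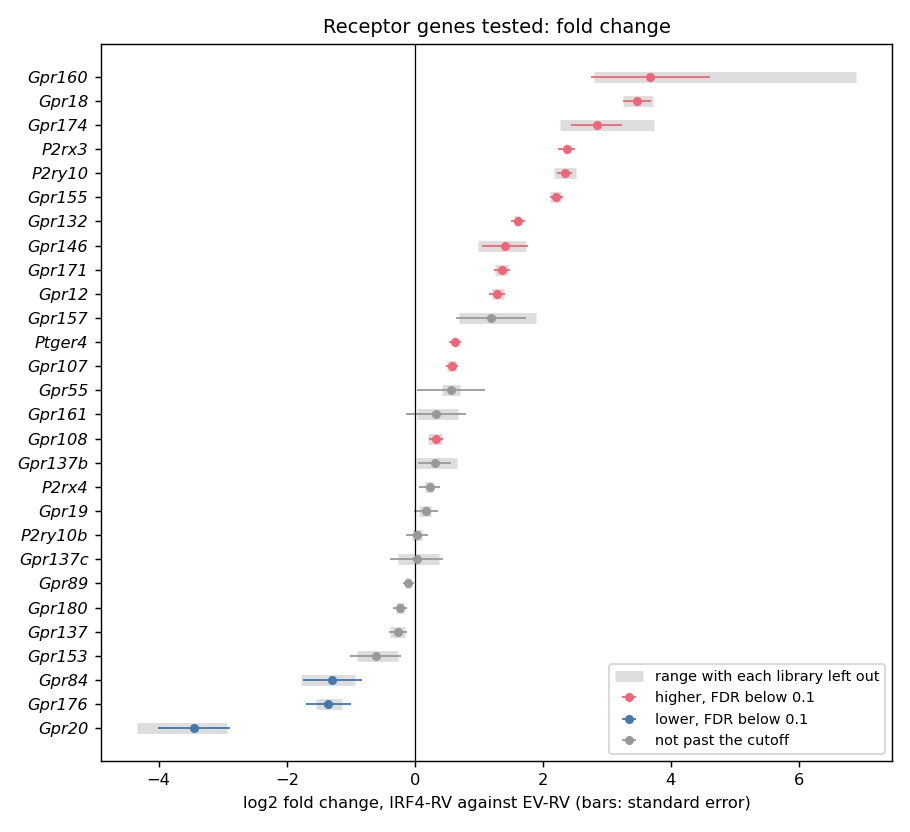
Log2 fold change of IRF4-RV against EV-RV for the 28 members tested, with standard errors as thin bars and the range with each library left out as wide gray bars; red and blue points passed an FDR of 0.1. The 13 red points run from 0.33 (*Gpr108*) to 3.68 (*Gpr160*), the 3 blue ones from -3.45 (*Gpr20*) to -1.29 (*Gpr84*), and the gray bar of *Gpr160* is the widest. The EV-RV counts of *Gpr160* (2 and 0) lay under the limit of 3 counts, so its 3.68 rests on a level below detection. *Gpr160* passed the filter on low counts through IRF4-RV alone, and *Gpr20* and *Gpr84* through EV-RV alone.

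The 8 genes grouped as encoding proteins of intracellular membranes all had enough counts to be tested, and 3 of them rose. Among all genes tested, 16% were called higher and 29.7% in either direction. *Gpr155* (ENSMUSG00000041762, chromosome 2, 73341506 to 73386572, minus strand), a cholesterol sensor of the lysosome that acts on mTORC1, had 309 and 296 counts in the EV-RV libraries against 1530 and 1491 in those of IRF4-RV. The log2 fold change of 2.21 (SE 0.102, adjusted p by edgeR = 9.42e-06) had the smallest p among the members. *Gpr107* (ENSMUSG00000000194, chromosome 2, 31152316 to 31218775, plus strand), a protein of the Golgi, had 937 and 888 counts in the EV-RV libraries against 1483 and 1474 in those of IRF4-RV, a log2 fold change of 0.58 (SE 0.0897, adjusted p by edgeR = 0.00309). Its relative *Gpr108* (ENSMUSG00000005823, chromosome 17, 57234635 to 57248446, minus strand) had 1139 and 1126 counts in the EV-RV libraries against 1354 and 1739 in those of IRF4-RV. Its log2 fold change was 0.33 (SE 0.107, adjusted p by edgeR = 0.0642). Its level was 40 CPM in IRF4-RV 1 and 47.8 CPM in IRF4-RV 2, the library with the highest stromal markers, whose part was not tested. Without this library the log2 fold change was 0.20 (edgeR adjusted p = 0.416). *Gpr108* was also not called by edgeR without EV-RV 1 (adjusted p = 0.183), without EV-RV 2 (adjusted p = 0.108) or with library size in place of TMM factors (adjusted p = 0.147).

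The other 5 genes of this group were not called. *Gpr89*, the Golgi pH regulator, had 755 and 741 counts in the EV-RV libraries against 726 and 788 in those of IRF4-RV, and its log2 fold change was -0.10 (SE 0.092, adjusted p by edgeR = 0.5). *Gpr180* had 633 and 649 counts in the EV-RV libraries against 549 and 638 in those of IRF4-RV. Its log2 fold change was -0.23 (SE 0.104, adjusted p by edgeR = 0.163), and with library size in place of TMM factors it was called lower (edgeR adjusted p = 0.0555). *Gpr137*, of the lysosomal membrane, had 273 and 296 counts in the EV-RV libraries against 267 and 247 in those of IRF4-RV, with a log2 fold change of -0.26 (SE 0.144, adjusted p by edgeR = 0.246). It shares 524 exon bases with *Bad* on the opposite strand. The related *Gpr137b* had 63 and 92 counts against 105 and 104, with overlapping groups and a log2 fold change of 0.31 (SE 0.262, adjusted p by edgeR = 0.451), and that of *Gpr137c* was 0.03. *Gpr19*, an orphan, had 112 and 120 counts in the EV-RV libraries against 126 and 157 in those of IRF4-RV, with overlapping groups and a log2 fold change of 0.17 (SE 0.189, adjusted p by edgeR = 0.583). *Gpr153*, another orphan, had 27 and 39 counts in the EV-RV libraries against 21 and 26 in those of IRF4-RV, with a log2 fold change of -0.61 (SE 0.4, adjusted p by edgeR = 0.327). Over the 12 members tested but not called, log2 fold changes ranged from -0.61 to 1.19 (*Gpr157*) and edgeR adjusted p from 0.163 to 0.972.

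Levels of different genes were compared per kilobase of merged exons. With EV-RV, *Gpr108* had the highest level of the 53 members that were not silent, at 12.2 ± 0.389 CPM per kilobase, followed by *Gpr180* at 10.5 ± 0.608 and *Gpr89* at 4.30 ± 0.115 (SD, n = 2 each). The receptors next in order were *P2ry10* at 3.76 ± 0.604 and *Ptger4* at 3.53 ± 0.0884, which differed by less than the spread between replicates. With IRF4-RV, *P2ry10* was first at 19.1 ± 0.145, before *Gpr108* at 15.3 ± 1.92 and *Gpr180* at 9 ± 0.495 (SD, n = 2 each). *Gpr132* followed at 8.44 ± 0.342 and *Gpr12* at 7.21 ± 0.496. *Gpr18* went from rank 19 with EV-RV to rank 9 with IRF4-RV, at 5.29 ± 0.455 CPM per kilobase, and *Gpr20* from rank 16 to rank 34. All members together held 6739 and 6642 counts in the EV-RV libraries against 12655 and 13542 in those of IRF4-RV, which is 0.0213% and 0.0213% against 0.0364% and 0.0358% of all counts.

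**Figure D3:**
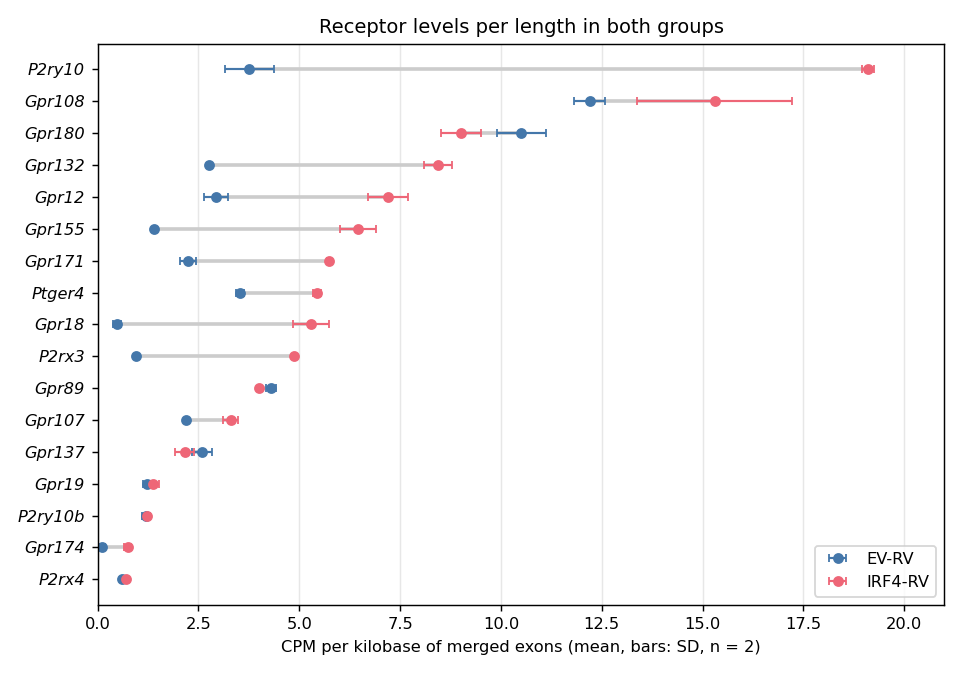
Level per kilobase of merged exons (linear axis) with EV-RV in blue and IRF4-RV in red for members above 0.7 CPM per kilobase in either group, as mean and SD of 2 libraries. *P2ry10* moves from 3.76 to 19.1, while *Gpr180* (10.5 and 9) and *Gpr89* (4.30 and 4.01) stay near the same place.

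Another 25 members were not silent but too low to be tested, with between 0 and 16 counts in a library. *P2ry2* (16 in IRF4-RV 2), *Gpr62* and *Adora2a* held the most. *Gpr62* had 14 and 5 counts in the EV-RV libraries against 6 and 2 in those of IRF4-RV, so that its groups overlapped. The ratio of summed counts after scaling, IRF4-RV over EV-RV, was 5.54 for *P2ry2* (exact 95% interval 1.62 to 29.4), 3.51 for *Adora2a* (1.27 to 12) and 0.389 for *Gpr62* (0.147 to 0.93). The intervals of *Gpr182*, *P2rx7* and *Gpr35*, named after their values were seen, also lay apart from 1, the first 2 above it and *Gpr35* below. These intervals cover counting error only and not the spread between replicates. By edgeR, *P2ry2* was called without IRF4-RV 1 (adjusted p = 0.0604) but not without a filter on low counts (adjusted p = 0.171). Others of the Gpr family in this range included *Gpr21*, *Gpr22*, *Gpr25*, *Gpr26*, *Gpr27*, *Gpr35*, *Gpr173*, *Gpr179* and *Gpr182*, besides *Gpr3*, *Gpr34* and *Gpr65* above.

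The 43 silent members together had between 12 and 22 counts in a library, and 16 of them had none in any library. Beside the P2ry, P2rx, Ptger and Adora genes given above they included *Gpr1*, *Gpr4*, *Gpr6*, *Gpr15*, *Gpr17*, *Gpr31b*, *Gpr33*, *Gpr37*, *Gpr37l1*, *Gpr39*, *Gpr45*, *Gpr50*, *Gpr61*, *Gpr63*, *Gpr75*, *Gpr82*, *Gpr83*, *Gpr85*, *Gpr101*, *Gpr119*, *Gpr135*, *Gpr139*, *Gpr141*, *Gpr142*, *Gpr143*, *Gpr149*, *Gpr151*, *Gpr152*, *Gpr158*, *Gpr162* and *Gpr165*. A level under the limit of 3 counts was not detectable at this depth.

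Genes that make, pass on or end the signals of these receptors were examined as lists. Among G protein alpha subunits, 9 of 13 were tested, 4 rose and 2 fell. *Gna11*, of the Gq class, rose from 410 and 324 to 767 and 761 counts, by 0.95 on the log2 scale (SE 0.121, adjusted p by edgeR = 0.00131). *Gnai2* and *Gnai3*, the inhibitory subunits of lymphocytes, rose by 0.37 and 0.33. *Gnao1* fell from 715 and 633 to 338 and 360 counts, by 1.06 (SE 0.104, adjusted p by edgeR = 0.000338). *Gnas*, which encodes the Gs subunit, had 2125 and 1328 counts in the EV-RV libraries against 934 and 1224 in those of IRF4-RV, a log2 fold change of -0.79 (SE 0.189, adjusted p by edgeR = 0.0209). The EV-RV libraries of *Gnas* differed, and without EV-RV 1 its log2 fold change was -0.47 (edgeR adjusted p = 0.0468). Of 15 beta and gamma subunits, 9 were tested, 0 rose and 2 fell (0 were higher at an unadjusted p under 0.05 by edgeR, and 0 were called higher by DESeq2). *Gng12*, with 9 and 13 counts against 12 and 47, was called higher by edgeR without a filter on low counts (adjusted p = 0.0881) and without IRF4-RV 1 (adjusted p = 0.0175), and its count of 47 came from the library with the highest stromal markers, whose part was not tested. *Gng4* fell from 194 and 197 to 31 and 52 counts, by 2.35 (SE 0.246, adjusted p by edgeR = 0.00047), and *Gnb4* by 0.45. The median log2 fold change was 0.21 for the alpha subunits and -0.09 for the beta and gamma subunits, against 0.00726 for all genes tested.

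RGS proteins end G protein signals by speeding GTP hydrolysis on alpha subunits. Of 19 *Rgs* genes, 9 were tested, 3 rose and 2 fell, with a median of 0.36. *Rgs10* had 6 and 8 counts in the EV-RV libraries against 363 and 437 in those of IRF4-RV, so that it was almost absent without IRF4-RV. Its log2 difference was 5.69 (SE 0.233, adjusted p by edgeR = 4.83e-06). *Rgs2* had 1354 and 1263 counts in the EV-RV libraries against 3746 and 4011 in those of IRF4-RV, a log2 fold change of 1.45 (SE 0.0767, adjusted p by edgeR = 1.85e-05), and *Rgs12* rose by 0.60. *Rgs18* had 170 and 214 counts against 92 and 128, and its log2 fold change was -0.93 (SE 0.216, adjusted p by edgeR = 0.0187). *Rgs19* fell by 0.31 (edgeR adjusted p = 0.055, and 0.231 without EV-RV 2, 0.132 without IRF4-RV 1 and 0.137 without IRF4-RV 2).

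Receptor kinases and arrestins switch off and internalize active receptors. Of 8 listed, 6 were tested, with a median of 0.04. *Grk2* rose from 9231 and 8365 to 16549 and 16882 counts, by 0.81 on the log2 scale (SE 0.0729, adjusted p by edgeR = 0.000232). *Arrb1* fell from 667 and 687 to 406 and 536 counts, by 0.64 (SE 0.126, adjusted p by edgeR = 0.009), and *Arrb2* by 0.41. Of 26 genes for adenylyl cyclases, phosphodiesterases and protein kinase A, 17 were tested, with a median of -0.09. Of the 17, 3 rose and 3 fell (35.3% called, against 29.7% of all genes tested). *Adcy7*, a cyclase of immune cells, rose by 0.82 (edgeR adjusted p = 0.00158), and the phosphodiesterases *Pde4b* and *Pde7a*, which break down cAMP, by 0.88 and 0.52. *Pde8a* and *Pde3b* fell by 0.41 and 0.48. The kinase subunit *Prkacb* fell by 0.25 (edgeR adjusted p = 0.0522, and 0.127 without EV-RV 1 and 0.414 without IRF4-RV 2).

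Of 14 genes listed under nucleotide and adenosine handling, 10 were tested, 2 rose and 5 fell, with a median of -0.29. *Entpd1* (CD39), which degrades extracellular ATP and ADP, had 664 and 546 counts in the EV-RV libraries against 1925 and 1896 in those of IRF4-RV. The change came to a log2 value of 1.55 (SE 0.105, adjusted p by edgeR = 5.15e-05). *Dpp4* (CD26), listed here though a peptidase of the cell surface, rose by 0.77. The nucleoside transporter *Slc29a1* fell from 7870 and 8351 to 5723 and 6509 counts, by 0.53 (SE 0.0836, adjusted p by edgeR = 0.0036). *Pnp*, which cleaves purine nucleosides, fell by 0.42, and *Ada*, which deaminates adenosine, from 176 and 162 to 84 and 108 counts, by 0.93 (SE 0.185, adjusted p by edgeR = 0.00951). *Nt5e* (CD73), which turns AMP into adenosine, was not tested, as no untested gene of the list had more than 1 count in a library.

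Of 9 genes for synthesis and removal of prostaglandin E2, 7 were tested and 4 fell, with a median of -0.26. *Ptgs1*, the cyclooxygenase COX-1, fell from 201 and 194 to 94 and 85 counts, by 1.25 (SE 0.179, adjusted p by edgeR = 0.00218). *Ptges2* and *Ptges3*, named as prostaglandin E synthases, fell by 0.67 and 0.44, and *Ptges3* is also a cochaperone of HSP90. The remaining gene of the 4, *Abcc4*, an exporter that carries prostaglandins, was singled out after its values were seen. It had a log2 fold change of -0.26 (edgeR adjusted p = 0.0812), and was not called by DESeq2 (adjusted p = 0.162) or by edgeR with any 1 library left out. The number called higher was 0 in this list (0 at an unadjusted p under 0.05 by edgeR and 0 by DESeq2), but not under each alternative. *Ptges*, another prostaglandin E synthase, had 13 and 32 counts against 17 and 94, and was called higher by edgeR without a filter on low counts (adjusted p = 0.0281) and without IRF4-RV 1 (adjusted p = 0.000595). *Slco2a1*, a prostaglandin transporter with 20 and 17 counts against 10 and 75, was called higher by edgeR without IRF4-RV 1 (adjusted p = 0.00213). Both were highest in IRF4-RV 2, the library with the highest stromal markers, whose part was not tested. *Gng12*, *Ptges* and *Slco2a1* were named after their values were seen. The 5 receptors for other prostanoids had at most 7 counts in a library. Over the 7 lists with genes tested, between 22.2% and 70% of the genes tested were called, against 29.7% of all genes. The share was 66.7% for alpha subunits, 22.2% for beta and gamma subunits, 55.6% for *Rgs* genes and 50% for receptor kinases and arrestins. For the cAMP genes it was 35.3%, for nucleotide and adenosine handling 70% and for prostaglandin E2 57.1%.

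**Figure D4:**
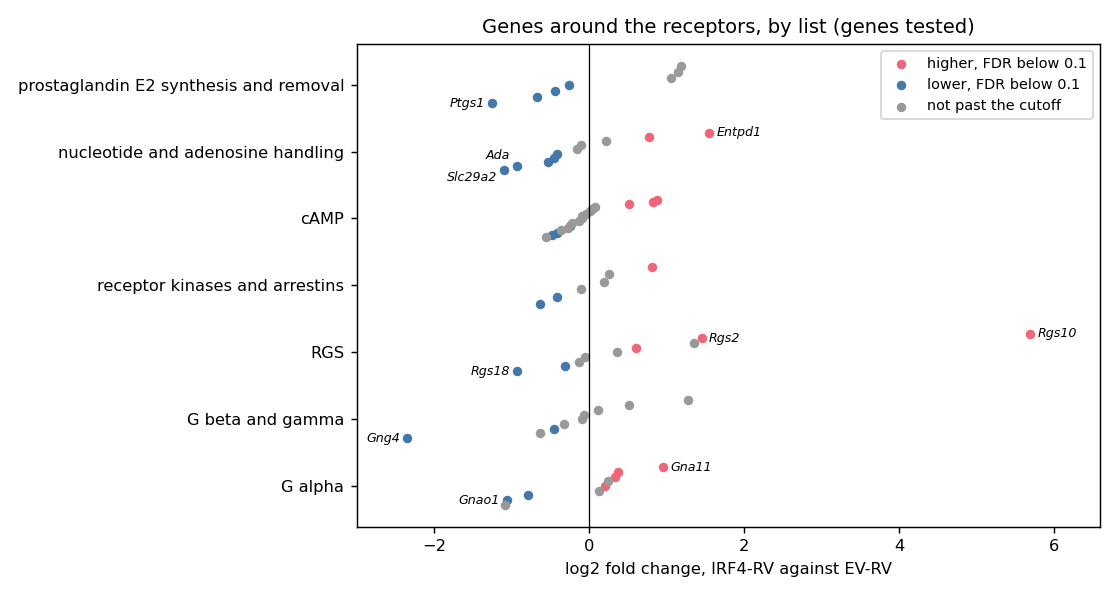
Log2 fold change of IRF4-RV against EV-RV for the genes tested in each list, 1 point per gene, with red and blue points past an FDR of 0.1 and gray points not past it. *Rgs10* (5.69) lies farthest to the right and *Gng4* (-2.35) farthest to the left, and in the prostaglandin list the 4 called genes lie left of 0.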

How the data were processed

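RNA of 4 libraries of T8 cells was sequenced. Per the labels and the study's methods, the authors used STAR 2.4.0j for alignment to GRCm38 and featureCounts for counting per gene, and they deposited raw counts. FastQC (0.11.2) and DESeq2 (1.22.1) are named in the submitters' processing notes. Strand and multi-mapping settings are not given in the sources used here.

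Identifiers were joined to GENCODE M21. Counts were tested with edgeR 4.0.16 (R 4.3.3; filterByExpr, TMM factors, quasi-likelihood F test, Benjamini-Hochberg adjustment over 14637 genes, FDR 0.1). Standard errors were taken as the log2 fold change over the square root of F. CPM are counts relative to the TMM-scaled library size. Scripts were tested on simulated data. Counts of replicate libraries differed by more than sampling noise (chi-square per degree of freedom 14.1 and 13.1). If the replicates are not separate cultures, p-values measure only technical spread.

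Members and lists were chosen with earlier results of these data known. Named were all members called, all P2ry, P2rx, Ptger and Adora genes with counts, the 6 Gpr genes of highest CPM among those not called, the 3 untested members with most counts, and per list at most 3 called genes in each direction. Genes that overlap or hold a called member were added. Alternatives were DESeq2 1.42.0, other scalings and filters, a replicate block, an FDR of 0.05, no counts at all as the silent rule, and leaving out each library. Some members are counted in the totals but not reported here by name. No genome sequence was used beyond RefSeq windows of gene starts.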

Additional observations from a re-analysis of the deposited data

How the results depend on the processing

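None of the 16 called members reversed direction under the alternatives run, and 11 of the 16 called members were called in each of them. The exceptions were *Gpr108*, *Gpr146*, *Gpr160*, *Gpr176* and *Gpr84*, each lost in at least 1. With 1 library left out, between 11 and 16 members were called, between 10 and 13 higher and between 1 and 3 lower, and the cause was not tested. DESeq2 called 14 members (without *Gpr160*, whose adjusted p was NA, and *Gpr84*), an FDR of 0.05 left 14, and a filter of 1 CPM in 2 libraries left 14, since *Gpr160* and *Gpr84* were then not tested. Library size in place of TMM factors called 16, with *Gpr180* in place of *Gpr108*, and moved the median of all genes from 0.00726 to -0.0832. *P2ry2* was called only without IRF4-RV 1. Calling a member silent only at 0 counts in each library gave 16 silent members in place of 43. In the replicate block fit, where the labels give no shared batch and deviations of same-numbered libraries correlated at 0.26 over 14637 genes, 17 members were called, with *Gpr180* added (adjusted p = 0.0704), and 4 in place of 2 beta and gamma subunits (*Gng12* and *Gnb2* added, both higher, adjusted p = 0.0797 and 0.0686) and *Ptges* higher (adjusted p = 0.0405), while 43.7% of all genes were called. The 25 members with few counts did not pass the filter on low counts, so depth limits what can be said of them. A fit with 1 library in a group assumes that it varies like the other group.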
